A study of Mus musculus with 10 samples.

Results

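MHC class I presentation was followed through 10 genes in the RNA of mammary epithelial cells (MECs) and mammary macrophages. The genes were taken as a fixed list of symbols, H2-K1, H2-D1, B2m, Tap1, Tap2, Tapbp, Psmb8, Psmb9, Nlrc5 and Erap1, and all 10 were found among the 55487 genes of the count tables. All cells came from 10-wk-old female BALB/c mice in diestrus, the progesterone-dominated part of the estrous cycle, and both genotypes carried floxed Cebpb, the gene of the transcription factor C/EBPβ. Cebpb ΔM mice (Csf1r-iCre pos;Cebpb fl/fl) delete it in cells that express the CSF1 receptor, the myeloid lineage and not macrophages alone, and their WT counterparts, Csf1r-Cre neg;Cebpb fl/fl, lack the Cre. MECs were what remained after negative selection of other lineages (2 WT and 2 Cebpb ΔM libraries), and macrophages were selected with antibody to F4/80 (2 WT and 4 Cebpb ΔM libraries), from glands without their lymph nodes. The labels do not say whether the libraries of a group came from separate mice, so the P-values measure the spread between these libraries, which may be in part technical.

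Class I molecules carry peptides of the cell's own proteins to the surface, where CD8+ T cells read them. The proteasome cuts the peptides, with the immunoproteasome subunits encoded by Psmb8 and Psmb9 in place of constitutive ones where they are made. The transporter formed by the products of Tap1 and Tap2 moves the peptides into the endoplasmic reticulum, the aminopeptidase ERAP1 trims them, and tapasin (Tapbp) bridges the transporter to the heavy chain (H2-K1 or H2-D1), which pairs with the light chain β2-microglobulin (B2m). NLRC5 is the transactivator of the class I genes, acting at their promoters over a module of S, X and Y boxes, and interferon raises most of the pathway. Nearly every nucleated cell makes class I, at levels that differ between cell types.

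The letters upstream of the heavy and light chain genes are shown because these 3 genes held TGACG followed by ATTGG, letters of that module. The rest of the module was not searched, in these or in other genes. In the RefSeq windows of mouse build GRCm38.p6, which is the C57BL/6 sequence and not that of BALB/c, 8 of the 10 genes had a window of 250 bases before the start of transcription, and Tap2 and Nlrc5 had none in the table. H2-K1 had a second window, from a start at base 34000333, with the same matches and a further CCAAT, which is not printed. The windows are printed 5′ to 3′ on the strand of the gene, with capitals for letters that match a searched motif: TGACG (the core of the X2 box), ATTGG (the Y box), GAANNGAAA (interferon factor type), GGGANTNCC (κB type) or TTNNGCAA (C/EBP type), each on both strands.
H2-K1, chr17:34000348-34000597, minus strand: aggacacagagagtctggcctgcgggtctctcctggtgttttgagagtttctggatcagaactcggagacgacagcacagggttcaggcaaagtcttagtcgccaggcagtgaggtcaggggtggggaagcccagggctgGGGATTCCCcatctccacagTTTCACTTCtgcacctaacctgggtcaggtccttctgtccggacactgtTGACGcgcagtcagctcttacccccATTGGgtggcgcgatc
H2-D1, chr17:35262844-35263093, plus strand: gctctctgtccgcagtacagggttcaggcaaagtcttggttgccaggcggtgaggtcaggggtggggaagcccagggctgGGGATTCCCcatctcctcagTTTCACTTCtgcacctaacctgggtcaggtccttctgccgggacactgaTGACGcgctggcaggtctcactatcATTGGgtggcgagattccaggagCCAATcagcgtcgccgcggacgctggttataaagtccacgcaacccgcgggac
B2m, chr2:122147437-122147686, plus strand: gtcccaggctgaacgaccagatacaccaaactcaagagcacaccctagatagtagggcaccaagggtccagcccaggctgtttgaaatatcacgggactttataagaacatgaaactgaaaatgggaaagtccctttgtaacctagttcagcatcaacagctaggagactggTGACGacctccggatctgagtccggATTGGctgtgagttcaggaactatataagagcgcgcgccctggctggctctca

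In all 3 windows TGACG was followed by ATTGG on the strand of the gene with 20 bases between them. This order within 30 bases was held by 0.381% of all 32851 windows, and among the members by H2-K1, H2-D1 and B2m but not by the 5 others with a window. The 3 windows are shown for this match, so the share is background and not a test. Of 20 other class I heavy chain genes with a window, 2 held it. The stretch from the κB-type match to ATTGG was 99 bases long in both heavy chain genes, and 88 of these 99 letters were identical. It held an interferon-type match on the strand opposite to the gene (TTTCACTTC) and a κB-type match read on either strand (GGGATTCCC). On either strand, GAANNGAAA occurred in 6.31% of all windows and GGGANTNCC in 3.36%. The C/EBP-type letters were in none of the members' windows and in 9.56% of all windows. A match is a description of letters only, and no match says only that they are not in this window. Each motif was searched at a single spacing. The B2m window holds gaaactgaaa and gggaaagtccc, which have other spacings than GAANNGAAA and GGGANTNCC and stay in lower case. The lack of marks there does not show that B2m lacks interferon-type or κB-type letters.

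Tap1 and Psmb9 are read in opposite directions from RefSeq starts with 225 bases between them. The letters between these starts are shown because both genes would be read from this interval. In the annotation used for counting, Psmb9 starts at base 34187764, inside Tap1, so there the genes overlap.
Between Psmb9 and Tap1, chr17:34187331-34187555, on the strand of Tap1: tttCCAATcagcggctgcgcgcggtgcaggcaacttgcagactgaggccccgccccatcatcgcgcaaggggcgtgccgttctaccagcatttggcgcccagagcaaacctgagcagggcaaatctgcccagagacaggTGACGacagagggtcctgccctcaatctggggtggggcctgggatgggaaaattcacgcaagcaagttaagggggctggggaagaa
TGACG lay on the strand of Tap1 and ATTGG on that of Psmb9, so the pair did not have the order seen in the heavy and light chain genes.

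The libraries held between 16935000 and 27008166 counts, and the 10 genes took up between 0.415% and 0.725% of them. All 10 genes were far above the level of 3 counts, which is between 0.111 and 0.177 CPM (counts scaled to a common library size), in every library, with Nlrc5 lowest at 345 to 944 counts. The selections differed in purity. The 12 macrophage markers summed to between 34.2 and 44.6 CPM in MEC libraries and to between 8320 and 16074 CPM in macrophage libraries, and all 12 were above 1 CPM in every macrophage library. The 12 epithelial markers summed to between 32777 and 40377 CPM in MECs, and to between 5799 and 10455 CPM in macrophage libraries, where all 12 were also detected. The 8 endothelial markers summed to between 1201 and 2606 CPM in macrophage libraries against at most 170.6 CPM in MECs, and the 8 fibroblast markers to between 3381 and 7758 CPM over all libraries. T and NK cell markers summed to at most 36.3 CPM, B and plasma cell markers to at most 19.6 CPM, neutrophil markers to at most 43.7 CPM and dendritic cell markers to at most 608 CPM, each in a macrophage library. In libraries that mix cells, fewer cells of a type and less RNA per cell cannot be told apart. Cebpb itself was scarcely detected, with 13 and 15 counts in WT macrophages and 16, 13, 5 and 4 counts in Cebpb ΔM macrophages. It stayed below the filter of that comparison and gives little check of the genotype labels. In MECs, where no deletion is expected from the Cre driver, it had 25 and 28 counts in WT and 69 and 42 counts in Cebpb ΔM. The exons of Cebpb share 312 nt with Tmem189 on the opposite strand, which had between 165 and 573 counts.

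The genes spanned a wide range of levels, and most of their order was the same in every library. Per kilobase of exon, B2m was highest with a mean of 1867 CPM per kb ± 560 (SD, n = 10), followed by H2-D1 with 970.0 CPM per kb ± 252 (SD, n = 10). Tapbp came next with 197 CPM per kb ± 20.6 (SD, n = 10). B2m was above H2-D1, and H2-D1 above Tapbp, in all 10 libraries. H2-K1 had 95.2 CPM per kb ± 18.7 (SD, n = 10). Tap2 had 79.6 CPM per kb ± 23.9 (SD, n = 10) and Psmb8 had 67.9 CPM per kb ± 8.75 (SD, n = 10). Their order varied, with Tap2 above Psmb8 in 4 of 4 MEC libraries and in 2 of 6 macrophage libraries. H2-K1 was above Tap2 in 8 of the 10 libraries. Tap1 had 23.2 CPM per kb ± 3.84 (SD, n = 10) and Psmb9 had 19.2 CPM per kb ± 3.77 (SD, n = 10), and this order held in 4 of 4 MEC libraries and in 4 of 6 macrophage libraries. Erap1 with 10.35 CPM per kb ± 2.04 (SD, n = 10) and Nlrc5 with 3.15 CPM per kb ± 1.11 (SD, n = 10) closed the order in every library. The lengths are of all annotated exons together, such as 5476 nt for Tap1, 3660 nt for Psmb9 and 3381 nt for Psmb8. Any gene whose main transcript is shorter than this reads lower per kilobase than that transcript would. The orders of Tap1 and Psmb9, and of Tap2 and Psmb8, rest on these lengths.

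**Figure D1:**
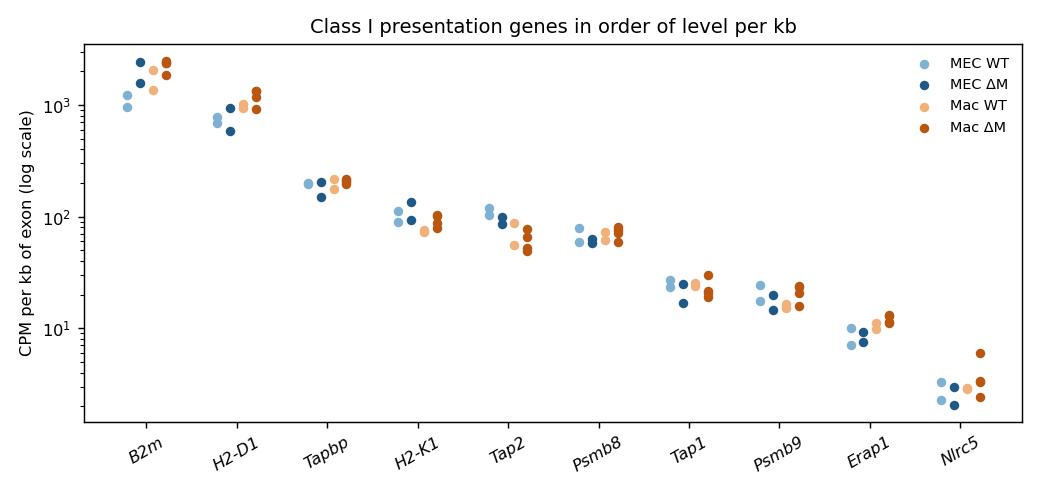
Level of each gene per kilobase of exon, in TMM-scaled CPM per kb on a log axis, with a point for each library, colored by group (MEC, epithelial cells; Mac, macrophages; ΔM, Cebpb ΔM). Genes are placed by their mean over the 10 libraries, from B2m at 1867 to Nlrc5 at 3.15, and the groups overlap far more within a gene than genes do along the order.

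The counts of the heavy chain genes carry a limit of their own. BALB/c mice have other class I alleles than the C57BL/6 reference that the reads were mapped to, and heavy chain genes are near copies of each other, so reads can be lost or be counted on a neighbor in the family. H2-K1 and H2-D1 are therefore reported as uncertain, above all against each other. Together they took between 76.9% and 84.2% of the counts on the 29 genes of the class I heavy chain list that were found. The list was made by symbol and may not hold the whole family, so their share of all class I counts may be lower. Several other members overlap a gene on the opposite strand. The exons of Psmb8 share 498 nt with Gm20496, which had between 0.792 and 0.912 times the count of Psmb8. The exons of Tap2 share 533 nt with Gm15821 and 165 nt with Gm20496, and Gm15821 had between 0.392 and 0.469 times the count of Tap2. Tapbp shares 904 nt with Gm19412, which had between 0.170 and 0.191 times its count. Tapbp also shares 149 nt with Zbtb22 on the same strand, which had between 98 and 217 counts, and strand cannot resolve this part. Erap1 shares 834 nt with Cast, which had more counts than Erap1 in every library, between 1.84 and 2.29 times as many in MECs and between 1.09 and 2.26 times in macrophages. Tap1 shares 212 nt with Psmb9, which had between 0.400 and 0.765 times the count of Tap1. Counting was set for a reverse-stranded library, but whether the low-input kit marks the strand is not given in the sources used here. If it does not, the reads of a gene and its partner on the opposite strand cannot be told apart.

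The first comparison asked whether the class I pathway of the epithelium differs when macrophages lack C/EBPβ. B2m had the largest difference of the 10 genes, and none of the 10 passed the test. B2m had 821 and 1064 CPM in WT MECs and 2098 and 1349 CPM in Cebpb ΔM MECs. Both Cebpb ΔM libraries lay above both WT libraries, and they also lay far apart from each other. The fitted log2 fold change was 0.88 (SE 0.27), a 1.85-fold higher level with a 95% interval from 1.22-fold to 2.81-fold. Its unadjusted P was 0.00808 and its adjusted P was 0.41 by edgeR's quasi-likelihood test over all 15698 genes tested. Leaving out Cebpb ΔM library 3, the lower of the pair, gave a log2 fold change of 1.15 with an adjusted P of 0.0217, so this call turned on a single library. Leaving out Cebpb ΔM library 1 gave 0.56 with an adjusted P of 0.664, and the log2 fold change was 0.70 without WT library 1 and 1.11 without WT library 3. Over all settings tried the adjusted P of B2m in MECs was between 0.0217 and 1.

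The heavy chains that pair with B2m had smaller fitted differences. H2-D1 had 1762 and 2012 CPM in WT MECs and 2434 and 1501 CPM in Cebpb ΔM MECs, so that the Cebpb ΔM libraries held both the highest and the lowest value. Its log2 fold change was 0.07 (SE 0.27). H2-K1 had 265 and 330.1 CPM in WT and 396 and 275 CPM in Cebpb ΔM, a log2 fold change of 0.19 (SE 0.24). In both genes the genotypes overlapped. The ratio of B2m to the sum of H2-K1 and H2-D1, per kilobase, was 1.23 and 1.39 in WT MECs and 2.26 and 2.32 in Cebpb ΔM MECs. In macrophages the same ratio was 2.03 and 1.23 in WT and 1.85, 1.84, 1.66 and 1.75 in Cebpb ΔM. The ratio does not depend on library scaling. The gap between the MEC genotypes was larger than the spread within either, but the 2 WT macrophage libraries lay nearly as far apart as the MEC genotypes, and the Cebpb ΔM macrophages lay between them. It is given as a description, since it was formed after the levels were known.

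The genes of peptide supply and loading were fitted between -0.27 and -0.01 in MECs on the log2 fold change scale, and none of them passed. Tap2 had 455 and 389.9 CPM in WT MECs and 376 and 322 CPM in Cebpb ΔM MECs, without overlap, at a log2 fold change of -0.26 (SE 0.21). Tap1 had 128 and 147 CPM in WT and 136 and 91.1 CPM in Cebpb ΔM, and its genotypes overlapped. Psmb9 had 64.7 and 89.2 CPM in WT and 72.8 and 53.3 CPM in Cebpb ΔM. Psmb8 had 202 and 267 CPM in WT and 211 and 195 CPM in Cebpb ΔM, also with overlap. Tapbp had 703 and 729 CPM in WT and 734 and 539.9 CPM in Cebpb ΔM, where the lowest of the 4 values was that of Cebpb ΔM library 3. Erap1 had 51.2 and 73.4 CPM in WT and 54.6 and 67.2 CPM in Cebpb ΔM, a log2 fold change of -0.01 (SE 0.24). Nlrc5, the transactivator, had 19.3 and 28.1 CPM in WT and 17.5 and 25.3 CPM in Cebpb ΔM, a log2 fold change of -0.12 (SE 0.29) with a 95% interval from -0.76 to 0.51. Of the 10 genes, 0 were called, against 8 of all 15698 genes (0.051%). At an unadjusted P under 0.05, B2m was the single member, against 5.42% of all genes. The genotypes did not overlap for 2 members, B2m and Tap2, against 28.2% of all genes. The median log2 fold change of the 10 genes was -0.14, beside -0.01 over all genes tested. With edgeR's likelihood ratio test, which called 179 genes (1.14%), and with DESeq2, which called 161 (1.03%), the members called were also 0.

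**Figure D2:**
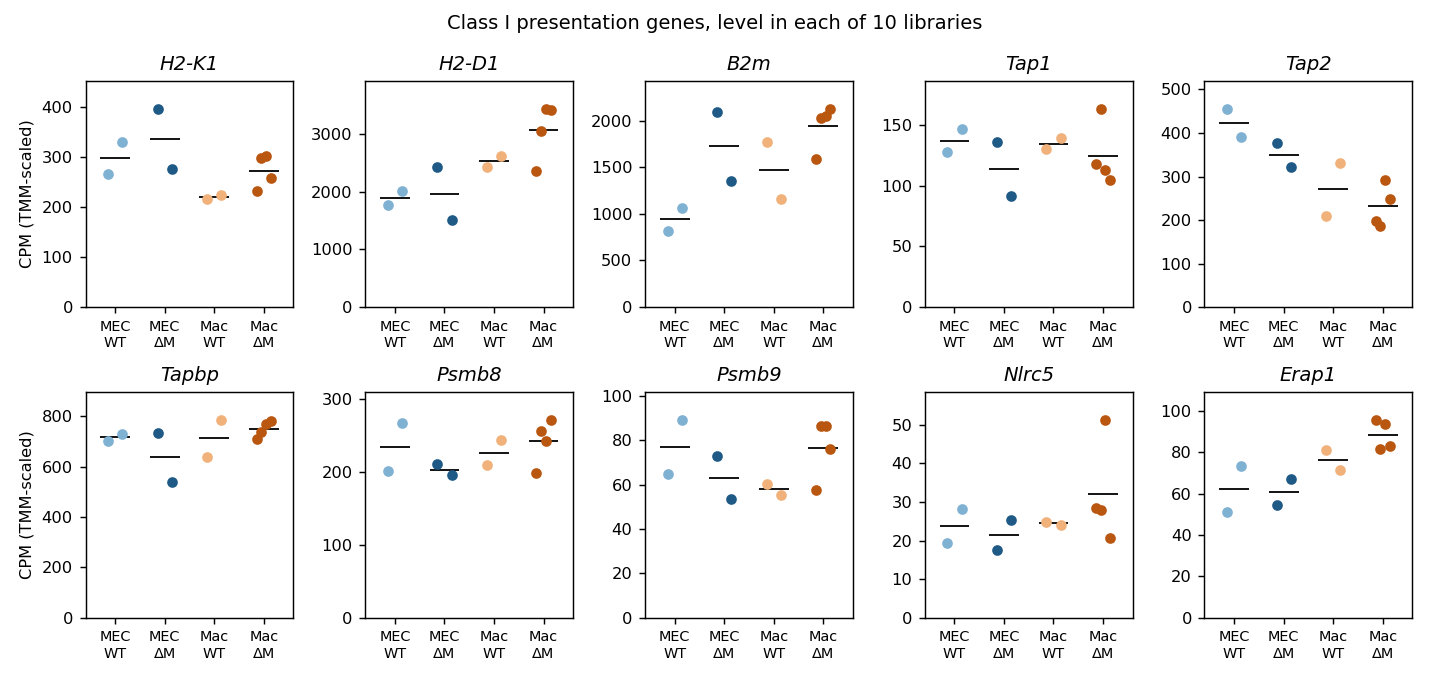
TMM-scaled CPM of each gene in each library, with a point per library and a line at the group mean; MEC is epithelial cells, Mac macrophages and ΔM Cebpb ΔM. B2m is at 821 and 1064 CPM in WT MECs and at 2098 and 1349 CPM in Cebpb ΔM MECs, while most other genes overlap between the genotypes in both cell types.

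The second comparison asked the same of the cells that carry the deletion. In macrophages 8 of the 10 fitted changes were above 0, against 8954 of all 17772 genes tested, and again none passed the test. B2m had 1772 and 1160 CPM in WT macrophages and 1586, 2031, 2051 and 2122 CPM in Cebpb ΔM macrophages. The WT libraries differed by more than any pair of Cebpb ΔM libraries, and the higher WT library lay above the lowest Cebpb ΔM library. The log2 fold change was 0.39 (SE 0.21), with an adjusted P of 0.652 by the quasi-likelihood test. It was 0.11 without WT library 5 and 0.72 without WT library 4, so its size rested on which WT library was kept. H2-D1 had 2431 and 2626 CPM in WT and 2366, 3048, 3429 and 3409 CPM in Cebpb ΔM, a log2 fold change of 0.25 (SE 0.18). Here 3 of the 4 Cebpb ΔM libraries were above both WT libraries and library 4 was below them. H2-K1 had 216 and 224 CPM in WT and 231, 299, 303 and 258 CPM in Cebpb ΔM, without overlap, at a log2 fold change of 0.29 (SE 0.17) and an adjusted P of 0.682 by the quasi-likelihood test.

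For peptide supply, Psmb9 had 60.3 and 55.6 CPM in WT macrophages and 57.5, 86.4, 86.6 and 75.9 CPM in Cebpb ΔM macrophages, a log2 fold change of 0.38 (SE 0.21). Library 4 was again the Cebpb ΔM library at the WT level. Psmb8 had 209 and 244 CPM in WT and between 199 and 271 CPM in Cebpb ΔM, a log2 fold change of 0.07 (SE 0.18). The transporter genes were fitted slightly lower, Tap1 with 130.1 and 139 CPM in WT and between 104 and 163 CPM in Cebpb ΔM, and Tap2 with 209 and 332 CPM in WT and between 186 and 293 CPM in Cebpb ΔM. Both overlapped between the genotypes. Tapbp had 639 and 786 CPM in WT and between 709 and 781 CPM in Cebpb ΔM, the tightest of all the estimates at a log2 fold change of 0.05 (SE 0.15). Erap1 had 81.1 and 71.4 CPM in WT and 95.7, 81.7, 93.8 and 83.0 CPM in Cebpb ΔM, without overlap but with a smallest gap of less than 1 CPM. Nlrc5 had 24.8 and 24.1 CPM in WT and 28.5, 28.0, 51.2 and 20.7 CPM in Cebpb ΔM, where library 6 was far above the rest. Its log2 fold change was 0.37 (SE 0.34), and 0.05 without that library.

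Of the 10 genes, 0 were called in macrophages, and the same test called 0 of all 17772 genes (0%). At an unadjusted P under 0.05 there were 0 members against 8.63% of all genes. The genotypes did not overlap for 2 members, H2-K1 and Erap1, both higher in Cebpb ΔM, against 18.5% of all genes. The likelihood ratio test called 138 genes (0.777%) and DESeq2 called 201 (1.13%), and neither called a member. The median log2 fold change of the 10 genes was 0.22, beside 0.00 over all genes tested. The 16 tested heavy chain genes other than H2-K1 and H2-D1 had a median of 0.42, with 13 above 0, 3 at an unadjusted P under 0.05 and 0 called. Over all 17772 genes tested, 8954 were above 0. The makeup of the libraries moved alongside these values. The macrophage markers summed to 8320 and 9406 CPM in WT and to between 10853 and 16074 CPM in Cebpb ΔM, and the epithelial markers to 10455 and 10258 CPM in WT and to between 5799 and 7548 CPM in Cebpb ΔM. The dendritic cell markers summed to 186 and 278 CPM in WT and to between 303 and 608 CPM in Cebpb ΔM. The part of this makeup in the class I values was not tested.

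The intervals show the range of changes that the fits left possible. In MECs the 95% intervals of the members other than B2m ran from a log2 fold change of -0.80 (Psmb9) to 0.71 (H2-K1). In macrophages they ran from -0.82 (Tap2) to 1.15 (Nlrc5), with the narrowest, that of Tapbp, from -0.29 to 0.39. A P above the threshold does not show that the genotypes had equal levels.

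**Figure D3:**
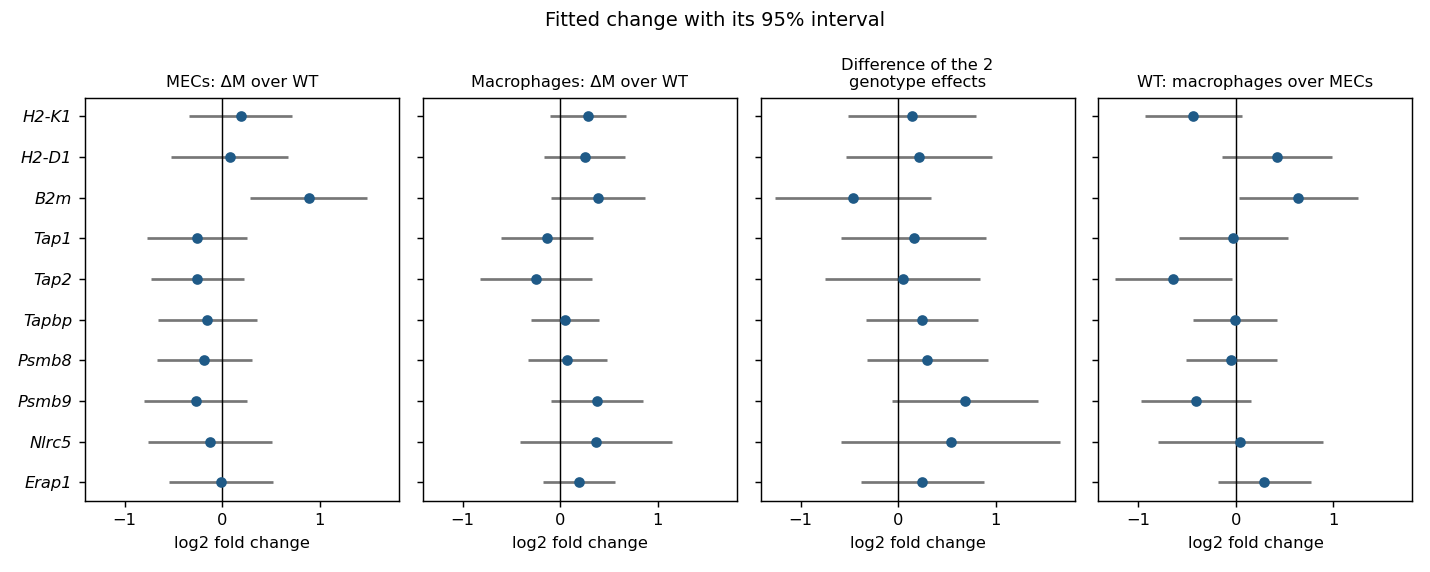
Fitted log2 fold change (points) with its 95% interval (lines) for each gene, in the 2 genotype comparisons, in the difference between them (macrophages minus MECs) and between WT macrophages and WT MECs. The intervals of B2m in MECs, and of B2m and Tap2 between the cell types, lie to a single side of 0, and none of these passed after adjustment over all genes.

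Whether the effect of the deletion differed between the cell types was tested directly, with all 10 libraries in a single fit of 18323 genes. The largest difference was that of Psmb9, the immunoproteasome subunit, fitted higher in Cebpb ΔM macrophages and lower in Cebpb ΔM MECs. The log2 difference was 0.69 (SE 0.34), macrophages minus MECs, with an unadjusted P of 0.0673 and an adjusted P of 0.967 by the quasi-likelihood test. With a library left out, the difference of Psmb9 was between 0.44 and 0.93. B2m had a difference of -0.46 (SE 0.36), its change being fitted larger in MECs. Of the 10 genes 9 had a difference above 0, against 9814 of all 18323 genes. The median difference was 0.23 in the members and 0.04 over all genes. Of the members 0 were called and 0 had an unadjusted P under 0.05, against 0% and 5.19% of all genes. The likelihood ratio test called 53 genes (0.289%) and DESeq2 called 28 (0.153%), with 0 members in each.

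The last comparison set WT macrophages against WT MECs. Many genes were called between these libraries, and none of the 10 class I genes was among them. The quasi-likelihood test called 4664 of 18323 genes (25.5%), the likelihood ratio test 5524 (30.1%) and DESeq2 5699 (31.1%), with 0 members in each. At an unadjusted P under 0.05 there were 2 members, B2m and Tap2, against 37.9% of all genes. The groups did not overlap for 5 members, 2 higher and 3 lower in macrophages, against 65.1% of all genes. B2m was 1.56-fold higher in WT macrophages, a log2 fold change of 0.64 (SE 0.28) with an adjusted P of 0.117 by the quasi-likelihood test. Without TMM scaling, which moved the median log2 fold change of all genes from 0.06 to 0.24, that of B2m was 0.82 and it passed with an adjusted P of 0.0372, which was its lowest over all settings tried, against a highest of 0.457. With a WT library left out it was between 0.34 (without macrophage WT 4) and 0.96 (without macrophage WT 5). Tap2 was lower in macrophages by a log2 fold change of -0.64 (SE 0.27) with an adjusted P of 0.11 by the same test. H2-D1 was fitted higher in macrophages at 0.42 (SE 0.26), H2-K1 lower at -0.44 (SE 0.23) and Psmb9 lower at -0.41 (SE 0.26). Nlrc5, Tap1, Tapbp and Psmb8 had log2 fold changes between -0.05 and 0.04 with TMM scaling, and those of Tap1, Tapbp and Psmb8 turned from below to above 0 without it. Erap1 had 0.29 (SE 0.22). The cell types differ in selection kit, count table and library depth as well, and these cannot be told apart from the cell type. The libraries also mix cells. Epithelial markers summed to 10455 and 10258 CPM in WT macrophage libraries, beside 33373 and 40377 CPM in WT MECs. The comparison is therefore of mixed libraries and not of pure cell types, and the part of the mixing in these values was not tested.

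For each gene the highest of the 10 libraries was compared with the lowest, and their quotient had a median of 1.85 over the 10 genes, from 1.39-fold for Psmb8 and 1.46-fold for Tapbp to 2.59-fold for B2m and 2.92-fold for Nlrc5. The same median was 2.22-fold over the 7837 tested genes with a mean of at least 20 CPM.

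The balance between some pairs of genes separated the cell types in every library of both genotypes. H2-D1 exceeded H2-K1, per kilobase, by 6.21-fold to 7.57-fold in the 4 MEC libraries and by 11.6-fold to 15.05-fold in the 6 macrophage libraries, and the ranges lay well apart. The mean ratio in macrophages was 1.81 times that in MECs within WT and 1.93 times within Cebpb ΔM. The limit on heavy chain reads applies to both terms of this ratio. Tap2 over Tap1, the partners in the transporter, was between 3.85 and 5.16 in MECs and between 1.65 and 3.74 in macrophages, with ranges that nearly met. For the proteasome, Psmb10 over its constitutive counterpart Psmb7 was between 0.504 and 0.617 in MECs and between 0.882 and 1.90 in macrophages, again without overlap. Psmb8 over its counterpart Psmb5 was between 0.558 and 0.845 in MECs and between 0.710 and 1.30 in macrophages. Psmb9 over its counterpart Psmb6 was between 0.106 and 0.163 in MECs and between 0.119 and 0.240 in macrophages. The last 2 ratios overlapped between the cell types. These ratios were formed with the levels known and are given without a test. How often other pairs of genes separate the cell types was not tested. Taken singly, 65.1% of all genes did not overlap between WT macrophages and WT MECs.

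**Figure D4:**
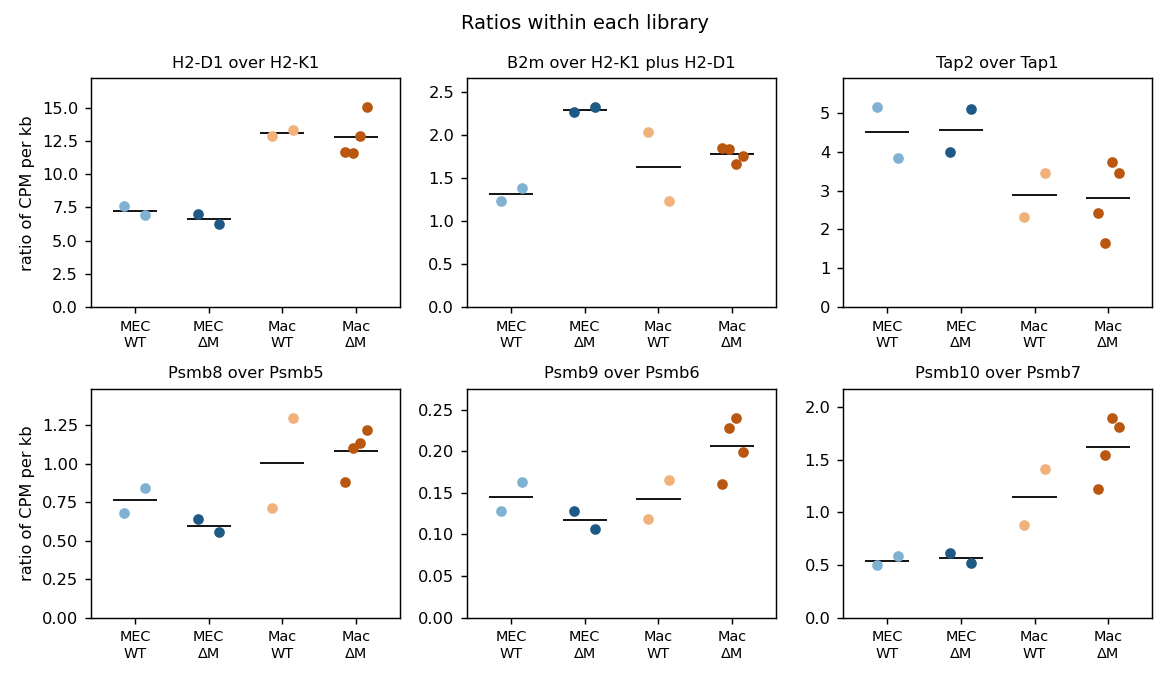
Ratios of CPM per kilobase within each library, with a point per library and a line at the group mean (Mac, macrophages; ΔM, Cebpb ΔM). H2-D1 over H2-K1 is 6.21 to 7.57 in MECs and 11.6 to 15.05 in macrophages, and B2m over the heavy chains is 2.26 and 2.32 in Cebpb ΔM MECs against 1.23 and 1.39 in WT MECs. In macrophages the latter ratio is 2.03 and 1.23 in WT and 1.66 to 1.85 in Cebpb ΔM.

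The rest of the pathway was read from 6 lists: the other heavy chain genes, peptide-loading chaperones, immunoproteasome partners, constitutive subunits, regulators, and interferon receptors with their signalling proteins. Between genotypes 0 genes of these lists were called, in MECs, in macrophages or in the interaction. Between the WT cell types, 6 of 16 other heavy chain genes, 3 of 7 regulators, 1 of 9 interferon signalling genes, 1 of 3 proteasome partners, 0 of 3 constitutive subunits and 0 of 5 loading chaperones were called, against 25.5% of all genes. Of the 11 called genes 7 were higher and 4 lower in macrophages.

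Of the 6 with the smallest P, 5 were higher in WT macrophages. Ciita, the transactivator of the MHC class II genes and a relative of NLRC5, had 1.90 and 1.30 CPM in WT MECs and 30.1 and 36.8 CPM in WT macrophages, a log2 fold change of 4.38 (SE 0.32). H2-T24, a nonclassical heavy chain gene, had 4.49 and 5.85 CPM in WT MECs and 55.8 and 58.8 CPM in WT macrophages, a log2 fold change of 3.47 (SE 0.24). Both were low in every MEC library and high in every macrophage library. H2-M3, whose product presents N-formylated peptides, had 12.5 and 11.5 CPM in WT MECs and 36.5 and 55.9 CPM in WT macrophages. H2-M11 was all but absent from MECs, with 2 and 0 counts in WT, against 74 and 80 counts in WT macrophages. The ratio of its summed counts, each over the summed library totals without TMM scaling, was 105 with a counting interval from 28.6 to 874. Irf8, a transcription factor of the myeloid lineage, had 18.6 and 19.1 CPM in WT MECs and 74.6 and 66.8 CPM in WT macrophages. H2-Q2, another heavy chain gene, was the single gene of the 6 that was lower in macrophages, with 8.50 and 8.45 CPM in WT MECs and 1.96 and 3.05 CPM in WT macrophages. The adjusted P of these 6 genes was between 3.31e-06 and 0.00691 by the quasi-likelihood test. Ciita differed by 20.8-fold between the cell types, while Nlrc5 in the same libraries had 19.3 and 28.1 CPM in WT MECs and 24.8 and 24.1 CPM in WT macrophages.

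Of the 4 list genes that were lower in WT macrophages, those other than H2-Q2 are named after their values were seen. The 4 were H2-Q10, the gene of a secreted heavy chain, at a log2 fold change of -2.20 (SE 0.55), H2-Q2 at -1.76 (SE 0.38), Psme1, a subunit of the proteasome activator PA28, at -0.75 (SE 0.18), and H2-T23, which encodes Qa-1, at -0.69 (SE 0.22). H2-T23 lost its call without TMM scaling, without a low-count filter and without MEC WT 3, macrophage WT 4 or macrophage WT 5, with an adjusted P of up to 0.306. The heavy chain genes among them share the limit on reads of near copies. Tyk2 and Irf1, higher in macrophages at 1.03 (SE 0.24) and 0.99 (SE 0.27), completed the 11. Tyk2, Psme1 and Irf1 lost their calls without MEC WT 1, MEC WT 3 or macrophage WT 5, and H2-Q10 without MEC WT 3 or macrophage WT 4, with adjusted P-values of up to 0.145.

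**Figure D5:**
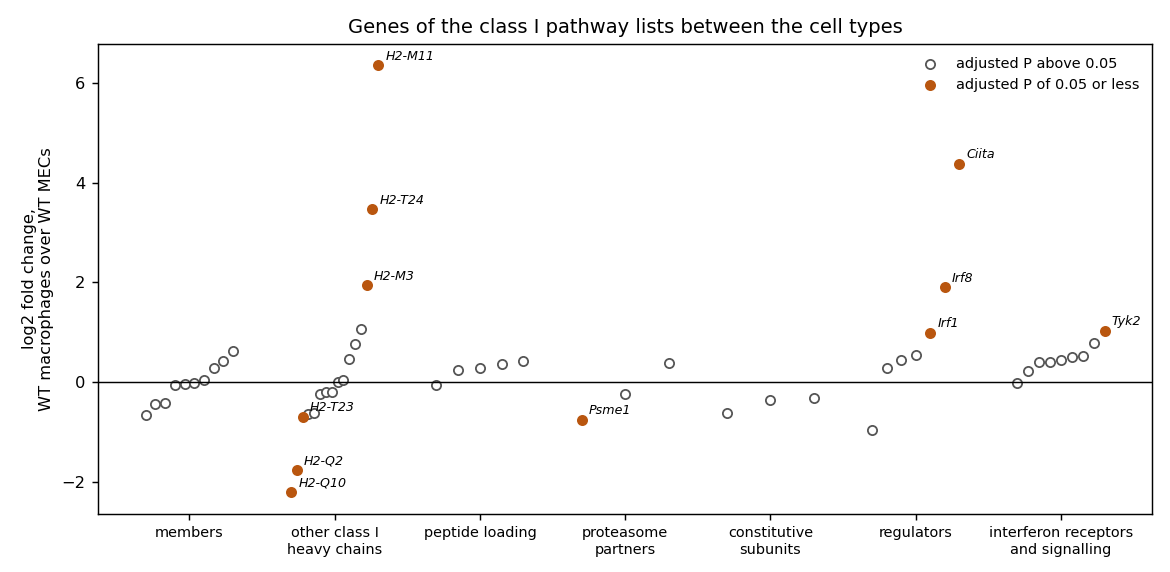
Log2 fold change of WT macrophages over WT MECs for each tested gene of the class I lists, filled where the adjusted P was 0.05 or less. The 10 members lie between -0.64 and 0.64, while called genes of the other lists run from -2.20 (H2-Q10) to 6.35 (H2-M11).

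The genes whose pattern over the 10 libraries was most like the mean log2 CPM of the members were Cav1 (Pearson's r = 0.92), Sept7 (r = 0.92), Il18bp (r = 0.90), Gm11127 (r = 0.90) and Atp6v1h (r = 0.90), among 12356 genes with a mean above 5 CPM. Cav1 encodes caveolin-1, and Il18bp a secreted protein that binds interleukin-18. The members and the listed heavy chain genes were left out of this comparison by symbol. A heavy chain gene under another kind of symbol would remain, and whether Gm11127 is such a gene was not checked. These correlations are descriptions over libraries that share depth and cell type. With any single library left out they were between 0.83 and 0.96. The members did not all follow their own mean. Psmb9 (r = 0.85), H2-D1 (r = 0.81) and Psmb8 (r = 0.73) were closest to it, and Tap2 (r = -0.20) did not follow it. The other members were between Tap1 (r = 0.33) and Tapbp (r = 0.69). The mean holds each member itself, which favors a higher r.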

How the data were processed

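RNA was sequenced from 4 MEC and 6 macrophage libraries, prepared with a low-input kit and read as pairs of 150 bases. For the deposited counts the authors used Trimmomatic (version 0.33) for trimming, HISAT2 (version 2.1.0) for alignment on GRCm38, and featureCounts (version 1.6.2) for assigning pairs to genes, reverse-stranded, at a mapping quality of at least 10 and without multimapping reads, on Ensembl release 100. The deposited values are these whole-number counts, without normalization. Gene symbols came from GENCODE release M21 (55141 of 55487 genes).

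Genes of at least 300 nt above 1 CPM in at least 2 libraries were tested with the quasi-likelihood test of edgeR (version 4.0.16, R version 4.3.3), two-sided, with trimmed mean of M-values (TMM) scaling and Benjamini–Hochberg adjustment over all genes tested, at a threshold of 0.05. The MEC and macrophage tables were fitted apart, and the comparisons between cell types used a single fit of all 10 libraries. The study names edgeR's likelihood ratio test, which was run beside it, as was DESeq2 (version 1.42.0). Levels are CPM scaled by TMM over all 10 libraries, and intervals are at 95%. Log2 CPM used a prior count of 2. Intervals from counts cover counting error only. The tests were first tested on simulated data. The members and lists were chosen with earlier results of these data known. The text names all 10 members, Cebpb, up to 6 called list genes per comparison by smallest P, and the 5 genes with the highest r to the members' mean. Other settings tried were RLE scaling, total counts, filterByExpr, no filter, summed heavy chain counts, a replicate block, a joint fit, macrophage libraries 4 and 5 alone, and each library left out. Ratios were also taken within each genotype, a choice made after seeing the data. A gene of the regulator list is not reported here. Tables were handled with pandas (version 2.3.3), and plots drawn with matplotlib (version 3.10.9).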

Additional observations from a re-analysis of the deposited data

Results flagged for a closer look

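In Cebpb ΔM macrophages B2m was at 1586, 2031, 2051 and 2122 CPM. Library 4 stood apart from the other 3, with a gap that was 0.83 of the whole range, just above Dixon's 95% critical value for 4 samples. Chance alone marks about 1 in 20 such groups, and 10 genes and 7 ratios were screened. The same library had the lowest H2-D1, H2-K1, Psmb8 and Psmb9 of the 4, the highest Erap1, and the lowest sum of macrophage markers (10853 CPM against up to 16074 CPM). The part of that makeup in the B2m value was not tested.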

How the results depend on the processing

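The count of members called was 0 in all 4 comparisons in every setting except 2. B2m passed in MECs without Cebpb ΔM library 3 (1 member, log2 fold change 1.15), and between the WT cell types with total counts in place of TMM (1 member). Left-out libraries gave between 0 and 1 members called in MECs and 0 elsewhere. The count over all genes moved far more. In macrophages it was 138 with the likelihood ratio test and 201 with DESeq2, against 0. In MECs it was 179 with the likelihood ratio test, 161 with DESeq2, 38 without the low-count filter and 0 in the joint fit, against 8, and between 2 and 337 with a library left out. For the difference between cell types it was 53 with the likelihood ratio test and 28 with DESeq2, against 0, and between 0 and 1 with a library left out. Between the WT cell types it was between 2456 and 4588 with a library left out, against 4664. Where this left a group with 1 library, the lone library was assumed to vary like the others. The cause of these shifts was not tested.

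With the replicate number as a block, 205 genes were called in MECs, 12 in macrophages and 1 for the difference, and 0 members. Same-numbered libraries deviated together with r = 0.105 over 15698 genes in MECs and r = 0.0394 over 17772 genes in macrophages, and the labels do not say that a number marks a shared mouse or day. The block turned the sign of Tap1 (0.020) and Psmb8 (-0.023) in macrophages, Erap1 (0.0033) in MECs and Tap2 (-0.18) for the difference. No paired analysis was possible because WT macrophage and WT MEC libraries share no number, for that comparison.

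Signs that turned belonged to members whose change was not called. Macrophage libraries 4 and 5 alone gave Tap1 0.049 and Psmb8 -0.0037, filterByExpr gave Erap1 0.0076 in MECs, and total counts gave Tap1 0.15, Tapbp 0.17 and Psmb8 0.13 between the WT cell types. Summing all class I heavy chain counts gave 0.24 between the WT cell types where H2-K1 alone gave -0.44, since the sum holds H2-D1. Leaving out single libraries turned the sign in macrophages for Tap2 (-0.55 to 0.12), Tapbp (-0.093 to 0.21), Psmb8 (-0.035 to 0.19). Leaving out single libraries turned the sign in MECs for H2-K1 (-0.070 to 0.40), H2-D1 (-0.29 to 0.36), Tapbp (-0.36 to 0.028), Psmb8 (-0.38 to 0.060), Psmb9 (-0.49 to 0.0041), Nlrc5 (-0.45 to 0.20), Erap1 (-0.26 to 0.30). Leaving out single libraries turned the sign for the difference between cell types for H2-K1 (-0.099 to 0.42), H2-D1 (-0.090 to 0.61), Tap1 (-0.10 to 0.48), Tap2 (-0.28 to 0.39), Erap1 (-0.036 to 0.49). Leaving out single libraries turned the sign between the WT cell types for Tap1 (-0.13 to 0.075), Tapbp (-0.12 to 0.18), Psmb8 (-0.24 to 0.17), Nlrc5 (-0.20 to 0.34). Of the 150 values of members under other settings in macrophages 143 kept their direction and side of the threshold, as did 107 of 120 in MECs, 158 of 170 for the difference and 98 of 110 between the WT cell types.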
